A study of Homo sapiens with 8 samples.

Results

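The enzymes described here make and use UDP-N-acetylglucosamine (UDP-GlcNAc): 5 enzymes of its synthesis (GFPT1, GFPT2, GNPNAT1, PGM3 and UAP1), the pair that adds and removes O-GlcNAc on proteins (OGT and OGA), and the first enzymes of sialic acid synthesis (GNE and NANS). The 9 genes were chosen by name and found by their NCBI Gene ID among the 18555 rows of the count table. All 9 have a row, and all 9 passed the filter on low counts. RNA-seq was done on cells labelled HepG2, an established human liver tumour line. In siNC (3 libraries) the cells were transfected with Allstar control siRNA, and in siXBP1 (3 libraries) with siRNA specific for XBP1. All 6 samples were given 30 nM thapsigargin for 3 hours, 2 days after transfection, so both groups were under endoplasmic reticulum (ER) stress and no unstressed arm was compared. Thapsigargin blocks the calcium pump of the ER. The siRNA lowers the transcript rather than deleting the gene, and 2 ChIP-seq samples of XBP1s were not analysed here.

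UDP-GlcNAc is the activated sugar with which cells start N-glycans in the ER, extend glycans in the Golgi and modify nuclear and cytosolic proteins with single O-GlcNAc residues. The hexosamine pathway makes it from fructose phosphate, glutamine, acetyl-CoA and UTP, and so draws on sugar, amino acid, fat and nucleotide supply at once. XBP1s, the transcription factor translated from spliced XBP1 mRNA, is known from other work as an activator of genes of this pathway under ER stress, and this is the question the siXBP1 comparison addresses for these enzymes.

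Libraries held 38209972 to 38890070 counts. XBP1 was lower in every siXBP1 library (276 to 299 CPM, that is counts scaled to a common library total) than in any siNC library (499.6 to 552 CPM). It fell, with a log2 fold change of -0.84 (SE 0.085, adjusted p = 0.0331 in edgeR's quasi-likelihood test). The estimate kept its direction with each library left out, but the adjusted p rose to 0.175 or 0.213 when siNC replicate 2 or 3 was dropped, and to 0.475 or 0.284 when siXBP1 replicate 1 or 2 was dropped. Of 12 hepatocyte markers, 7 had a row and 0 averaged at least 1 CPM, with ALB among those without a row, so statements concern cells labelled HepG2. Summed over the list, hepatocyte markers lay at 0.463 to 0.746 CPM in siNC and 0.877 to 1.35 CPM in siXBP1. No marker of this list had more than 20 counts in a library, so both ranges lie near the detection floor. Of 7 markers of other epithelial cells 3 averaged at least 1 CPM, and the list summed to 4264 to 5685 CPM in siNC and 4170 to 5297 CPM in siXBP1, nearly all of it from KRT17 and KRT7, with EPCAM and CDH1 below 1 CPM. Of 6 fibroblast markers 5 averaged at least 1 CPM, and the list summed to 323 to 340.4 CPM in siNC and 346 to 353 CPM in siXBP1. Means were higher in siXBP1 for COL3A1 (134 against 124 CPM) and LUM (143 against 129 CPM). They were lower for COL1A1 (39.1 against 44.6 CPM) and PDGFRB (5.33 against 5.81 CPM), and DCN had 29.2 against 29.0 CPM. The groups overlapped for each of these genes. COL1A2, the other fibroblast marker, had at most 2 counts in a library. Of 6 endothelial markers 2 averaged at least 1 CPM, and the list summed to 15.7 to 18.7 CPM in siNC and 14.3 to 16.7 CPM in siXBP1. Of 6 leukocyte markers 1 averaged at least 1 CPM, CD68. That list summed to 37.5 to 44.1 CPM in siNC and 40.5 to 43.5 CPM in siXBP1. The part of the cell types behind these marker lists in the results was not tested. The first principal component of the libraries held 59.1% of the variance, with siNC replicate 1 (score 0.643) and siXBP1 replicate 3 (score -0.648) at its ends. Between them both other siNC libraries (-0.290 and -0.0815) scored below both other siXBP1 libraries (0.137 and 0.239). Component 2 held 15.3% of the variance and set the groups apart. Its scores were -0.251, -0.402 and -0.424 in siNC and 0.151, 0.732 and 0.194 in siXBP1.

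UAP1 was the member with the largest difference between groups. UAP1 (gene ID 6675, chromosome 1, 162561531 to 162601240, plus strand, GRCh38) joins N-acetylglucosamine phosphate to UTP and so completes UDP-GlcNAc. Its level was 203.9, 204.3 and 210.0 CPM in the siNC libraries and 132, 149 and 146 CPM in the siXBP1 libraries. All siXBP1 libraries lay below all siNC libraries, and the siXBP1 mean (142 ± 9.1 CPM, SD, n = 3) was 69.1% of the siNC mean (206 ± 3.42 CPM, SD, n = 3). The log2 fold change was -0.53 (SE 0.090, 95% interval -0.73 to -0.33). With an unadjusted p of 0.000183 UAP1 ranked 4th of 14337 genes, but it did not pass edgeR's test over all genes (adjusted p = 0.594).

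For UAP1 the tools gave different answers. edgeR called 0 of the 9 members, where it called 0.00697% of all genes tested, that is XBP1 alone. At an unadjusted p under 0.05 edgeR gave 1 member, UAP1, and 3.61% of all genes. DESeq2, with the same groups and no covariate, called UAP1 as lower (adjusted p = 0.000932) and no other member, where it called 0.0628% of all genes as lower. A fit that took each library's score on that component as a covariate also called UAP1 alone among the members (log2 fold change -0.54, SE 0.062, adjusted p = 1.51e-05, against a range from 1.51e-05 to 1 over all alternatives), where 0.488% of all genes were called lower. That score was computed from these same 6 libraries, so SEs and adjusted p-values of that fit may be too small. Across 18 alternative settings the UAP1 estimate stayed between -0.58 and -0.48. Of the 9 members UAP1 was the only one whose groups did not overlap. Among all genes tested siXBP1 lay wholly below siNC for 3.74% and wholly above it for 5.01%.

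**Figure D1:**
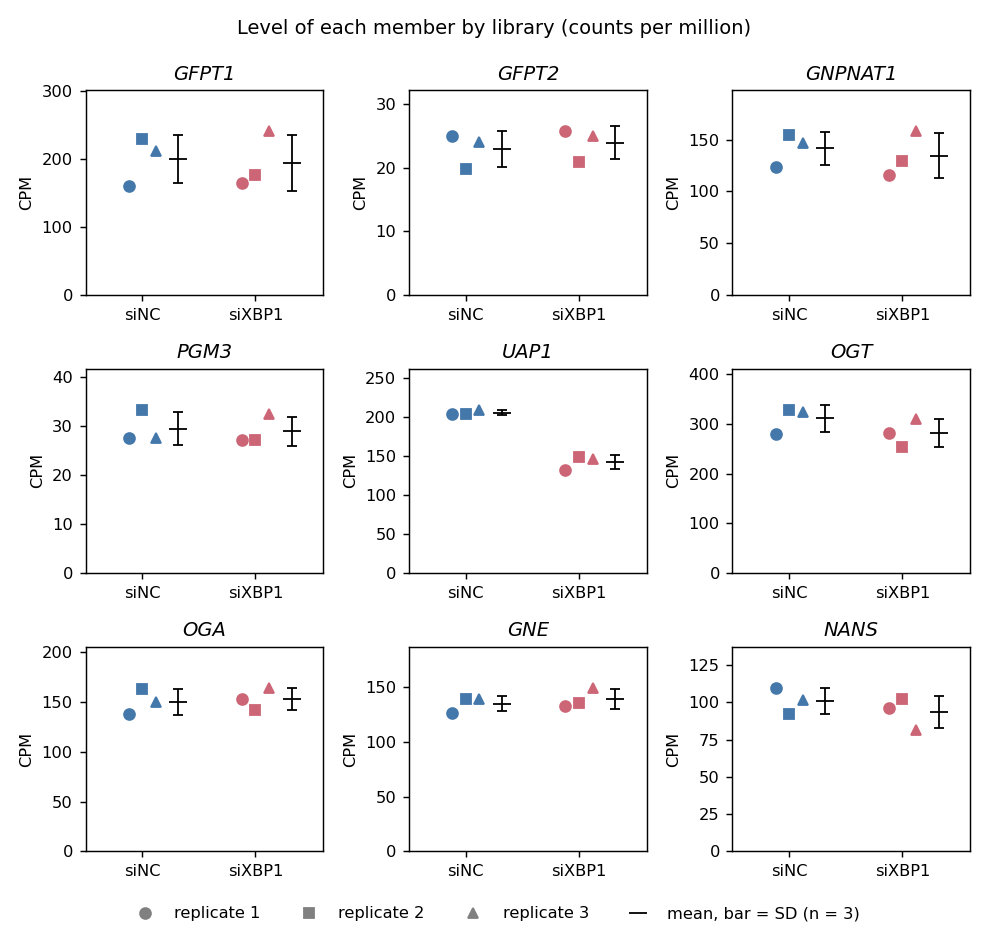
Level of each of the 9 enzymes in CPM (vertical axes, each from 0) in 3 siNC and 3 siXBP1 libraries, with the marker shape giving the replicate number and the bar the mean ± SD. UAP1 is the only panel in which the groups do not overlap, at 203.9 to 210.0 CPM in siNC against 132 to 149 CPM in siXBP1.

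GFPT1 (gene ID 2673, chromosome 2, 69319780 to 69387227, minus strand) catalyses the first and rate-limiting step, the transfer of an amino group from glutamine to fructose phosphate. It had 160, 229 and 211 CPM in the siNC libraries and 164, 177 and 240.3 CPM in the siXBP1 libraries. Both the lowest and the highest of the 6 values therefore belong to the end libraries of the first component, siNC replicate 1 and siXBP1 replicate 3. Group means were 199.95 ± 35.6 and 194 ± 40.7 CPM (SD, n = 3 each), and the log2 fold change was -0.044 (SE 0.17, edgeR adjusted p = 1). The 95% interval, from -0.42 to 0.33, includes both a fall and a rise of this gene. The sign depended on the libraries used: leaving out siNC replicate 2 gave 0.059, leaving out siXBP1 replicate 1 gave 0.064 and leaving out siXBP1 replicate 2 gave 0.0092. With both end libraries left out, which leaves 2 libraries a group, GFPT1 was called lower (log2 fold change -0.36, SE 0.087, adjusted p = 0.00994, otherwise between 0.272 and 1), in a fit that called 3.42% of all genes as lower. In the 4 libraries left the groups are also apart on the first component, so group and component cannot be told apart in that fit. That fit also called UAP1 (-0.56, adjusted p = 0.000105) and OGT (-0.28, adjusted p = 0.0418, otherwise between 0.139 and 1).

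GFPT2 (gene ID 9945, chromosome 5, 180300698 to 180353336), the second enzyme for the same step, had 25.0, 19.8 and 24.0 CPM in siNC and 25.8, 21.0 and 25.1 CPM in siXBP1. The groups overlapped fully, with a log2 fold change of 0.061 (SE 0.13, 95% interval -0.24 to 0.36). GFPT2 did not share the library pattern of GFPT1: both end libraries were among its higher values, and its lowest value was in siNC replicate 2, where GFPT1 was high. GFPT1 and GFPT2 are paralogs, and how the deposited counts treat reads that match both is not given in the sources used here.

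GNPNAT1 (gene ID 64841, chromosome 14, 52775193 to 52791607), which acetylates glucosamine phosphate, had 124, 154 and 147 CPM in siNC and 116, 129 and 158 CPM in siXBP1. PGM3 (gene ID 5238, chromosome 6, 83148705 to 83193900), the mutase of the next step, had 27.5, 33.3 and 27.5 CPM in siNC and 27.2, 27.1 and 32.3 CPM in siXBP1. For both genes the groups overlapped and siXBP1 replicate 3 and siNC replicate 2 held the highest values. The log2 fold changes were -0.073 for GNPNAT1 (SE 0.13, 95% interval -0.37 to 0.23) and -0.025 for PGM3 (SE 0.13, 95% interval -0.31 to 0.26). Neither passed the test (edgeR adjusted p = 1 each).

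**Figure D2:**
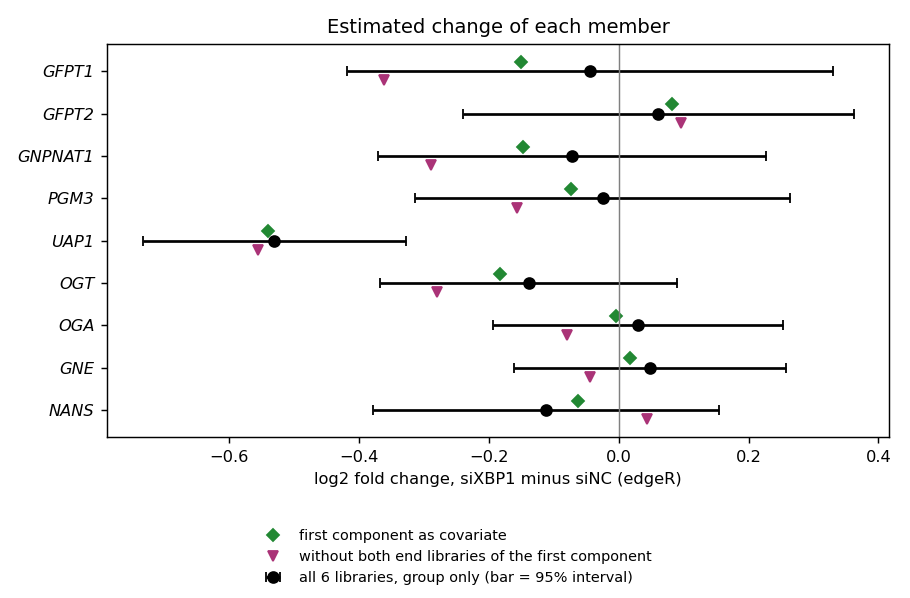
Log2 fold change of each enzyme, siXBP1 minus siNC, in the fit on all 6 libraries (black, bars give 95% intervals), with the first component as a covariate (green) and with both end libraries left out (purple). The interval of UAP1 (-0.73 to -0.33) is the only one that leaves out 0, and the estimate for GFPT1 moves from -0.044 to -0.36 when the end libraries are left out.

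The members differed in how far replicates of 1 group spread. UAP1 had a coefficient of variation of 1.66% in siNC and 6.39% in siXBP1, and GFPT1 one of 17.8% and 21.0%. The other 7 members lay between 5.23% (GNE in siNC) and 16.0% (GNPNAT1 in siXBP1). Ordered by score on the first component, GFPT1 fell without exception from 240.3 CPM in siXBP1 replicate 3 to 160 CPM in siNC replicate 1. At the ends of that order NANS ran the other way, from 81.3 CPM in siXBP1 replicate 3 to 109.8 CPM in siNC replicate 1. UAP1 was at 146 and 204 CPM in these libraries, close to its group means. The component was computed with these genes among 11528, so this is a description, and its part in the group differences was not tested.

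**Figure D3:**
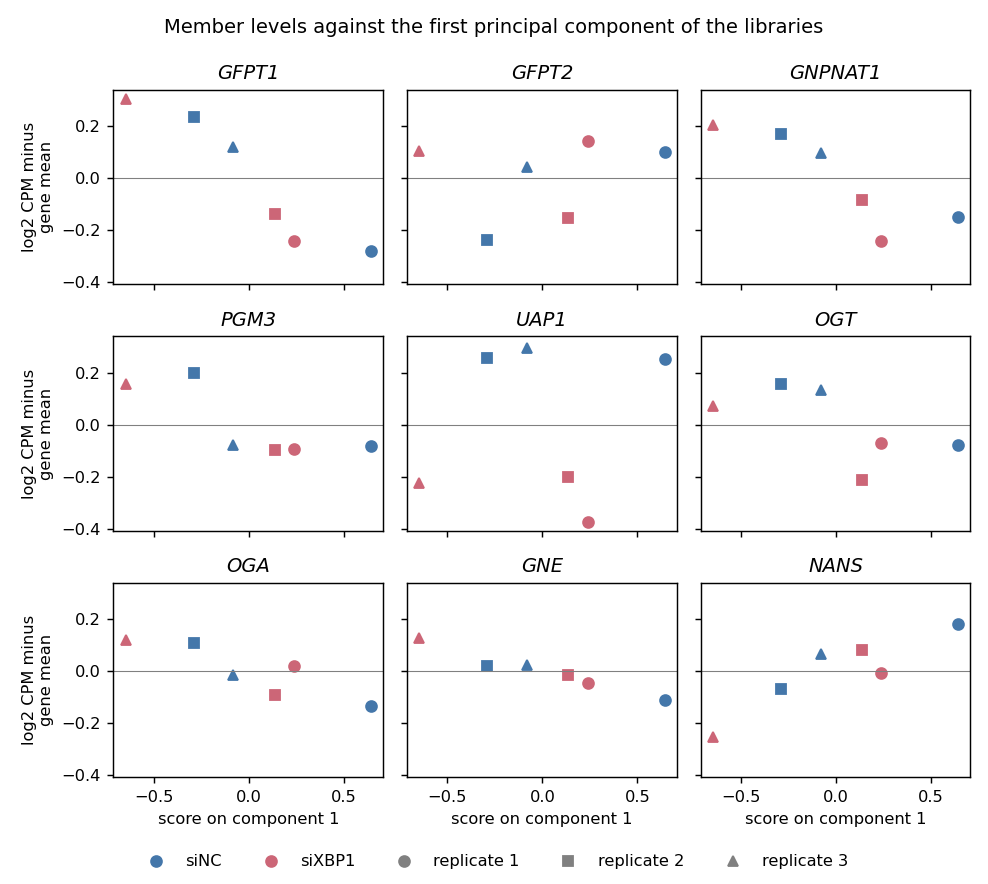
Log2 CPM of each enzyme minus its mean over 6 libraries (vertical axis) against the library's score on the first principal component (horizontal axis, no unit), with siNC in blue and siXBP1 in red. GFPT1 declines along the axis whatever the group, while UAP1 separates into 3 siNC values above its mean and 3 siXBP1 values below it.

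Because counts of different genes in 1 library share its depth, their ratio does not depend on library scaling. UAP1 was set against the mean log2 count of GFPT1, GFPT2, GNPNAT1 and PGM3, a comparison chosen after the values were seen. The difference was 1.75, 1.56 and 1.64 on the log2 scale in siNC and 1.13, 1.31 and 0.97 in siXBP1. The siXBP1 libraries were all below the siNC libraries, with means of 1.14 ± 0.17 and 1.65 ± 0.095 (SD, n = 3 each), a change of -0.51. The exact permutation test, two-sided, gave p = 0.1, the smallest value that 3 against 3 libraries allow. Leaving out each library in turn gave changes from -0.60 to -0.43, and leaving out both end libraries gave -0.38. Levels of different genes were not ranked, since transcript lengths were not used here.

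OGT (gene ID 8473, chromosome X, 71533104 to 71575892) transfers GlcNAc to serine and threonine residues of nuclear and cytosolic proteins. It had 279.5, 328.5 and 324 CPM in siNC and 281, 254 and 310.3 CPM in siXBP1. The groups overlapped, although the lowest value was in siXBP1 and the highest in siNC, and the log2 fold change was -0.14 (SE 0.10, 95% interval -0.37 to 0.090, edgeR adjusted p = 1). OGA (gene ID 10724, chromosome 10, 101784450 to 101818444) removes the same residue. It had 138, 163 and 149.8 CPM in siNC and 153, 142 and 165 CPM in siXBP1, with a log2 fold change of 0.030 (SE 0.0996, 95% interval -0.19 to 0.25).

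The ratio of OGT counts to OGA counts separated the groups although neither gene did. It was 2.03, 2.01 and 2.16 in siNC and 1.83, 1.79 and 1.89 in siXBP1. Every siXBP1 library was therefore below every siNC library, with mean log2 ratios of 0.88 ± 0.037 and 1.05 ± 0.056 (SD, n = 3 each), a difference of -0.17. The exact permutation test, two-sided, gave p = 0.1, again the smallest value possible with these numbers. Benjamini-Hochberg adjustment over the 2 ratios tested leaves 0.1 for each. It takes no account of the choice of the UAP1 ratio after the values were seen. Leaving out each library in turn gave differences from -0.19 to -0.14, and leaving out both end libraries of the first component gave -0.203. With libraries paired by replicate number, an exact sign-flip test gave p = 0.25, the smallest value that 3 pairs allow. How often ratios of 2 genes separate the groups in these libraries was not counted. The OGT to OGA ratio concerns transcripts, and its size depends on the lengths of both transcripts, so only its change is read here.

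**Figure D4:**
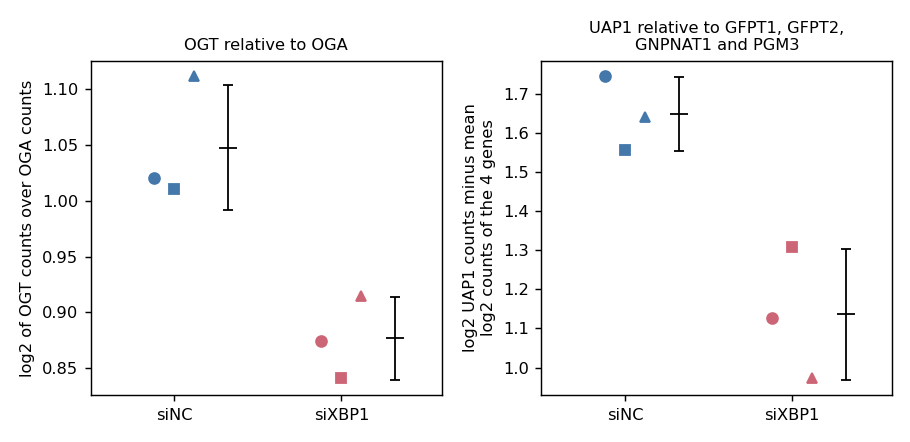
Left, log2 ratio of OGT to OGA counts in each library. Right, log2 UAP1 counts minus the mean log2 counts of GFPT1, GFPT2, GNPNAT1 and PGM3. Points are 3 siNC (blue) and 3 siXBP1 (red) libraries, marker shapes give the replicate number, bars give mean ± SD, and the vertical axes do not start at 0. The groups do not overlap in either panel, with mean differences of -0.17 and -0.51.

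GNE (gene ID 10020, chromosome 9, 36214441 to 36276978) turns UDP-GlcNAc into N-acetylmannosamine phosphate and commits it to sialic acid. Its level was 126, 138 and 139 CPM in siNC and 132, 135 and 149 CPM in siXBP1, with overlapping groups and a log2 fold change of 0.048 (SE 0.094, 95% interval -0.16 to 0.26). NANS (gene ID 54187, chromosome 9, 98056732 to 98083077), which forms the sialic acid phosphate, had 109.8, 92.4 and 101 CPM in siNC and 96.5, 102 and 81.3 CPM in siXBP1. Its groups overlapped as well, with a log2 fold change of -0.11 (SE 0.12, 95% interval -0.38 to 0.15). The lowest NANS value was in siXBP1 replicate 3, and without both end libraries the estimate was 0.044.

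Over the 9 members, 6 estimates were below 0 and 3 above, where 6760 of all 14337 genes tested were below 0. The median log2 fold change was -0.044, beside 0.0096 over all genes tested. The median depended on which libraries were used. Dropping siXBP1 replicate 1, 2 or 3 gave 0.019, 0.0080 or -0.13, dropping siNC replicate 1, 2 or 3 gave -0.076, -0.012 or -0.054, and dropping both end libraries gave -0.16. Fewer cells with a transcript and less transcript per cell cannot be told apart in these bulk libraries. Nothing in the labels says that replicates came from separate cultures, and p-values then cover only the spread between these libraries, which may be technical.

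XBP1s binds an ACGT core, and the best-known sites are the 8-letter unfolded protein response element (UPRE) and the ER stress response element, CCAAT and CCACG with a spacer of 9 bases. RefSeq start-site windows (GRCh38.p14, 250 bases before to 50 after a start) were searched on both strands for TGACGTG and GACGTGG, the first and the last 7 letters of the UPRE, which overlap each other. The sequences below show which members hold them, in the gene's direction from 5′ to 3′, with the match in capitals and 11 bases on each side in lower case. Where the match reads CCACGTC it lies on the strand opposite to the gene.
UAP1, chr1:162561537-162561565, plus strand: gctcccggcgcTGACGTGtctgggcggtc
UAP1, chr1:162561860-162561888, plus strand: ccacgcgctcaGACGTGGacacgcgtcgc
GFPT1, chr2:69387390-69387418, minus strand: acgagccactgCCACGTCgccgccgccag
GNPNAT1, chr14:52791563-52791591, minus strand: cgttggcgctgCCACGTCtgggccgcggt
PGM3, chr6:83193256-83193284, minus strand: gccacgcagggCCACGTCtgcggttctga
NANS, chr9:98056680-98056709, plus strand: cgaccgcgggcTGACGTGGcggggctggcg

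The 9 members had 13 start-site windows, and 5 members had a match in at least 1 of them. All of these are listed, and NANS alone carried both 7-letter stretches as the full 8-letter element. TGACGTG was found in 1.97% and GACGTGG in 3.13% of all 35116 windows, and 5.23% of the 27305 genes had either in at least 1 window. Those 27305 are all genes with a window, not only the genes tested. The share of windows with the full 8-letter element was not counted. GACGTGG reads CCACGTC on the other strand and so contains CCACG, which the 5 members with a match therefore hold by construction. CCACG alone was present for 8 members, all but OGA, but also in 38.1% of all windows. That share is per window, and the share per gene was not counted, while some members have more than 1 window. The complete ER stress response element was found for 0 members and in 0.0769% of windows. The first UAP1 match starts 17 bases after the most upstream UAP1 start and 174 bases before the second start. The match began 180 bases before the start in GFPT1, 8 before the downstream of 2 starts in PGM3, 41 before it in NANS and 27 after it in GNPNAT1, while the window at the upstream PGM3 start held no match. UAP1 and NANS both hold TGACGTG, and their log2 fold changes were -0.53 with groups apart and -0.11 with overlapping groups. The motifs were chosen with the windows in view, and a match describes letters, not binding.

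The surrounding pathway was read from 5 lists with 73 genes, of which 72 had a row and 68 were tested. edgeR and DESeq2 each called 0 of the 68, where DESeq2 called 0.105% of all genes, and 1 gene, GCNT2, had an unadjusted p under 0.05. Estimates were above 0 for 30 and below 0 for 38, with a median of -0.018, where 6760 of all 14337 genes tested were below 0. The groups did not overlap for 3 genes that were higher in siXBP1 and 3 that were lower, or as a whole 6 of 68 where 8.75% of all genes tested did not overlap.

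Among 10 genes of salvage and side reactions, which recycle GlcNAc or return hexosamines to glycolysis, 8 estimates were below 0 (median -0.078). Over all 14337 genes tested 6760 were below 0. The groups overlapped for all 10 genes of this list. UAP1L1, the paralog of UAP1, belongs here and is named for that, after its values were seen, with 25.1, 21.1 and 21.6 CPM in siNC and 22.6, 19.6 and 17.5 CPM in siXBP1 (log2 fold change -0.18, SE 0.14, adjusted p = 1). Its groups overlapped, unlike those of UAP1. Among 13 genes of substrate supply, such as hexokinases, glutamine transporters and acetyl-CoA synthesis, estimates ran from -0.12 to 0.10 (median -0.030) with overlap in every gene. For activation and transport of sialic acid, 3 of 4 estimates were above 0 (median 0.098), again with overlap in every gene.

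Of 33 tested genes that carry UDP-GlcNAc into the secretory pathway or transfer it there, 16 estimates were above and 17 below 0 (median -0.011). B3GNT2, which extends poly-N-acetyllactosamine chains, had 23.2 ± 2.9 CPM in siNC and 28.2 ± 2.00 CPM in siXBP1 (SD, n = 3 each), with a log2 fold change of 0.29 (SE 0.13, edgeR adjusted p = 1). ALG14, part of the enzyme that adds the second GlcNAc to the N-glycan precursor, had 6.55 ± 0.28 and 5.61 ± 0.43 CPM (-0.22, SE 0.15). MGAT2, a GlcNAc transferase of the Golgi, had 89.2 ± 3.11 and 79.7 ± 6.47 CPM (-0.16, SE 0.10). The other pair without overlap, EXT2 and DPAGT1, had log2 fold changes of 0.15 and -0.051, and both are named after their values were seen. GCNT2, which branches such chains, was named for its p after its values were seen: it had 29.0, 34.5 and 30.2 CPM in siNC and 22.7, 23.4 and 29.3 CPM in siXBP1 (log2 fold change -0.31, SE 0.14, unadjusted p = 0.0459, adjusted p = 1). In the fit with the covariate GCNT2 was the only gene of the 5 lists that passed (-0.37, adjusted p = 0.0289), or 1 of 68 where 1.2% of all genes were called in either direction. Of 8 tested partners and substrates of OGT, 4 estimates were above and 4 below 0. Among these TRAK1, which links mitochondria to motor proteins, had groups apart at 50.1 ± 0.99 and 53.9 ± 1.9 CPM (SD, n = 3 each; log2 fold change 0.11, SE 0.096).

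**Figure D5:**
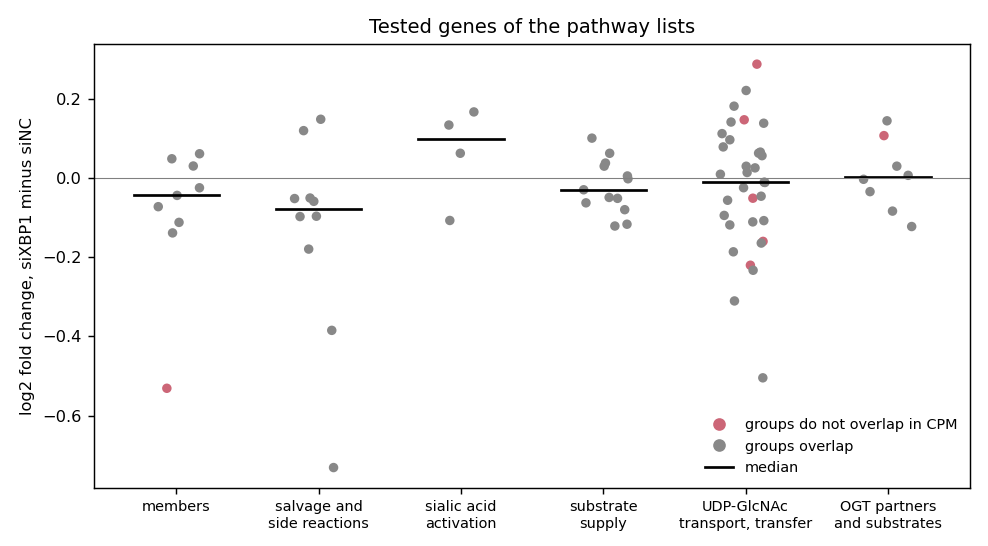
Log2 fold change, siXBP1 minus siNC, of every tested gene in the member list and the 5 pathway lists (points, spread sideways for legibility), with the list median as a line. Red points are genes whose groups do not overlap in CPM, and UAP1 (-0.53) is the red point far below the other members.

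The genes whose pattern over the 6 libraries was most like that of UAP1 were found by the root mean square difference of log2 CPM centred on each gene's mean, over 10745 tested genes that averaged 5 CPM or more. COMMD6 was nearest, at 0.058, with 22.4 ± 1.07 CPM in siNC and 16.2 ± 1.13 CPM in siXBP1 (SD, n = 3 each). AMIGO3 (0.084), CFAP410 (0.101), HERC2P9 (0.105) and FICD (0.108) followed. FICD, which modifies the ER chaperone BiP, had 18.7 ± 2.28 and 12.3 ± 0.83 CPM, and HERC2P9 is a pseudogene that may share reads with HERC2. In all 5 the groups did not overlap, as this measure of likeness to UAP1 favours, and 0 passed edgeR's test on group alone. DESeq2 called AMIGO3 (adjusted p = 0.0256), where it called 0.0628% of all genes as lower. The fit with the covariate called COMMD6 (adjusted p = 0.0179), AMIGO3 (0.00786) and FICD (0.00324), where it called 0.488% of all genes as lower. The 5 genes were chosen for likeness to UAP1 in these same libraries, and that choice favours such calls. Of the ER stress check genes, HSPA5 (-0.067), DDIT3 (-0.071) and ATF4 (-0.066) had overlapping groups. DNAJB9, an ER co-chaperone and textbook target of XBP1s, was apart, with 65.9, 81.9 and 87.1 CPM in siNC and 43.1, 43.9 and 56.6 CPM in siXBP1 (log2 fold change -0.71, SE 0.15, edgeR adjusted p = 0.818, DESeq2 0.0161, and 1.87e-07 in the fit with the covariate).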

How the data were processed

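RNA-seq of 3 siNC and 3 siXBP1 libraries was used. The authors deposited whole-number read counts per NCBI Gene ID, not normalized. Alignment with STAR 2.5.2a to hg38 and counting with featureCounts 1.5.0 are named in the submitters' processing notes. The annotation and the strand setting of the counting are not given in those notes. Columns were matched to samples by title. RefSeq names (GRCh38.p14) were found for 18526 of 18555 IDs. CPM are the deposited counts scaled by library total, with no length correction. Among counts from 1 to 40, 75.8% to 80.5% were even, so both mates of a pair were probably counted and the counts halved as an alternative.

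Genes were kept with filterByExpr (14337 genes), normalized with TMM and tested with edgeR 4.0.16 in R 4.3.3 (quasi-likelihood, two-sided, group only, 4 residual degrees of freedom), with Benjamini-Hochberg adjustment over all genes and a threshold of 0.05. The SE is the log2 fold change divided by the square root of F. The procedure was tested on simulated data. Alternatives were other normalizations, filters and tools (DESeq2 1.42.0, limma-voom 3.58.1), the replicate number as a block, a covariate, left-out libraries, halved counts and a threshold of 0.01. Members, lists and alternatives were chosen with earlier results of these data known. Named genes are the 9 members, XBP1, up to 3 genes a list with the largest change among those averaging 5 CPM or more with groups apart, and the 5 genes most like UAP1. UAP1L1, GCNT2, EXT2, DPAGT1, SLC38A2, SLC38A1, SLC1A5, AMDHD2, NAGK, GNPDA2 and the marker and ER stress genes given by level were named after their values were seen. A further marker of the hepatocyte list is not reported here.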

Additional observations from a re-analysis of the deposited data

How the results depend on the processing

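The number of called genes depended on the tool and on how the first component was treated. Against 0 genes higher and 1 lower, DESeq2 called 6 and 9, the fit with that component as a covariate 102 and 70, and the fit without both of its end libraries 209 and 493, where group and component cannot be told apart. Of the members these fits called 1, 1 and 3. Upper-quartile factors or an adjusted p under 0.01 left 0 genes lower, and leaving out 1 library gave 0 to 1, with 0 members in each case. With the replicate block, 0 genes were higher, 1 was lower and UAP1 had a log2 fold change of -0.53 (adjusted p = 0.236). Same-numbered libraries had correlations of their deviations of 0.60, -0.36 and 0.43. With 3 libraries a group these cannot settle whether the numbers pair them. The block changed no call. It lowered the SE of GFPT1 from 0.17 to 0.11 and that of GNPNAT1 from 0.13 to 0.099, while that of UAP1 was 0.090 without it and 0.091 with it. UAP1 and OGT kept negative estimates in all 18 alternatives. With 1 library left out, the estimate lay between -0.24 and 0.064 for GFPT1, -0.043 and 0.14 for GFPT2, -0.22 and 0.026 for GNPNAT1, -0.13 and 0.068 for PGM3, -0.036 and 0.087 for OGA, and -0.017 and 0.084 for GNE, and so changed sign for these 6. With the covariate OGA was at -0.0050. Without both end libraries OGA was at -0.079, GNE at -0.045 and NANS at 0.044. The cause of these changes was not tested. Each member had 769 to 12769 counts in a library, and the precision of its fold change is that of 3 libraries a group.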

Other observations

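SLC38A2, a glutamine transporter of the substrate supply list that was picked after its values were seen, had 686, 926 and 892 CPM in siNC and 767, 774 and 1014 CPM in siXBP1. Its lowest and highest values were in siNC replicate 1 and siXBP1 replicate 3, as for GFPT1. SLC38A1, of the same list, had the same extremes. SLC1A5, another glutamine transporter of that list, had the opposite ones, with 494 CPM in siNC replicate 1 and 380 CPM in siXBP1 replicate 3. AMDHD2, also picked after its values were seen, removes the acetyl group from GlcNAc phosphate. Its extremes were opposite to those of GFPT1, with 19.9 CPM in siNC replicate 1 and 8.58 CPM in siXBP1 replicate 3. The other 4 libraries lay between 12.7 and 13.9 CPM. NAGK, which like AMDHD2 belongs to the list of salvage and side reactions, had the same extremes as AMDHD2 (38.1 and 26.6 CPM). GNPDA2 of that list was lowest in siNC replicate 1 (11.7 CPM), as GFPT1 was. How many of all genes have such extremes was not counted.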
